A study of Homo sapiens with 12 samples.

Results

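MEC1 is an established human B cell line derived from chronic lymphocytic leukaemia. The comparison described here sets MEC1 cells labelled with mutant U1 (g.3A>C) against MEC1 cells labelled with wild-type U1. Its members are the columns named for MEC1, which are 4 of the 12 gene count libraries of the series and 2 of its 6 splice junction columns. Each MEC1 group held 2 technical replicates of the gene counts and 1 pooled junction column. JVM3 and HG3, the other leukaemia lines of the series, were sequenced with the same 2 U1 states and serve below only to show where MEC1 differed. The sources used here give no agent or treatment time, nor do they say how the mutant U1 was introduced, what the wild-type cells carry in its place, or whether a group is 1 clone.

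U1 is the small nuclear RNA of the U1 snRNP, the particle that first binds the 5' splice site, or donor, where an intron begins. It does so by base pairing of its own 5' end with the last bases of the exon and the first bases of the intron. A pre-mRNA with several possible donors is cut at one of them, and the choice sets which exon sequence is kept. Alternative donors can add or remove protein sequence, or introduce an early stop codon that exposes the RNA to nonsense-mediated decay.

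The 5' end of U1 is shown because the labelled change lies in it. It was read from the RNU1-1 transcript of GENCODE release 29, which is 164 bases long, and the capital marks position 3 counted from the 5' end.
RNU1-1 5' end: atActtacctg
The labelled change is A3C in the RNA sense of this gene. Position 3 faces the sixth base of the intron, where an A in U1 pairs with a T (U in RNA) and a C in U1 pairs with a G.

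The donors below are shown because each gained reads in mutant MEC1 at the cost of another donor of the same gene that joins the same acceptor (the end of the intron). Each sequence holds the last 3 exon bases and the first 8 intron bases, 5' to 3', with the sixth intron base in capitals. The letters come from GENCODE 29 transcripts whose exons run across the donor, and positions given later are those of the junction file in hg19.
SPPL2A gained donor: aaagtaagGat
SPPL2A lost donor: aaggtaggGat
LPCAT4 gained donor: tcagtaagGac
LPCAT4 lost donor: caggtaaaGga
VPS29 gained donor: ctagtaagGat
VPS29 lost donor: agagtaagTtt
GAS5 gained donor: tgggtaagGac
GAS5 lost donor: aaggtacaTgt
TAF15 gained donor: taggtatgGag
TAF15 lost donor: aaggtaagTat
ELL2 gained donor: gcggtatgGat
ELL2 lost donor: ggggtgagTac
GORASP2 gained donor: ctggtttgGag
GORASP2 lost donor: ttagtaagTtc
FGD2 gained donor: caggtaacAgt
FGD2 lost donor: tatgtgagTac
In 7 of these 8 pairs the gained donor carries G at the marked base, and FGD2 is the exception with an A. In SPPL2A and LPCAT4 the lost donor carries G as well.

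RNU1-1, one of several U1 gene copies, was read in every MEC1 library. Its level was 25.4 and 24.2 CPM (gene counts scaled to the library total) in the mutant libraries and 13.1 and 12.7 in the wild-type libraries. The groups did not overlap, and edgeR put the difference at 0.89 on the log2 scale (adjusted p = 0.0431). The SE of 0.04 comes from the technical replicates' log2 CPM and not from edgeR's fit. RNU1-2 stood at 1.92 and 1.57 CPM in mutant and 5.09 and 1.41 CPM in wild-type libraries, where the replicates differ. With it, the other 56 U1 gene entries read in MEC1 summed to 21.3 and 20.9 CPM in mutant and 25.1 and 21.2 in wild-type libraries. U1 copies are near-identical, and gene counts do not separate mutant from wild-type U1, so the split between copies is uncertain and the U1 state rests on the labels.

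The 4 MEC1 libraries held 29880079 to 37983392 gene counts, within the 29880079 to 39716818 of the whole series. Reads outside annotated features took 18.47% and 21.56% of entries in the mutant libraries and 17.72% and 18.97% in the wild-type libraries. The 7 B cell markers were all read, with summed levels of 2070 and 2050 CPM in mutant and 2290 and 2290 CPM in wild-type libraries. Of 10 T and NK cell markers found in the file, 2 were at 0 in all 4 libraries (CD3D and CD3G), and the list summed to 15.5 to 17.3 CPM, most of it GNLY at 13.2 to 14 CPM, and 1 member, NKG7, rose (1.09 and 0.569 to 1.87 and 1.74 CPM), a call lost by DESeq2 (adjusted p = 0.144) and by edgeR without wild-type replicate 2 (0.189). Monocyte markers summed to 0.69 to 1.25 CPM with 3 of 9 at 0, and erythroid markers to 0.144 to 0.553 CPM with 4 of 6 at 0. Fibroblast and epithelial markers summed to 9.79 and 10.1 CPM in mutant and 16.8 and 17.4 in wild-type libraries, with 1 of 10 at 0. Of the 7 tested, CDH1 fell (13.5 and 14.8 to 4.69 and 5.38 CPM) and COL1A1 rose (1.12 and 0.971 to 2.79 and 2.36 CPM). The B cell markers were thus read in both groups, as the label of the line asks, and the part of the other cell types' markers in the results was not tested. Since these are bulk RNA, fewer expressing cells and less RNA per cell cannot be told apart in any level below.

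By a rule of size alone, a junction gained use at 877 acceptors in MEC1. The use of a junction is its reads as a percentage of all junction reads that end at the same acceptor. Of 75795 junctions with at least 20 acceptor reads in both MEC1 columns, 880 (1.16%) gained and 899 (1.19%) lost at least 20 percentage points with mutant U1. At a minimum of 50 acceptor reads, 436 of 61393 junctions gained and 442 lost as much. With 1 column per state there is no test, so how many of these changes exceed the spread between libraries is not known. The 95% Wilson intervals given cover counting error only. Of the 880 that gained, 203 had less than 5% of the reads in wild-type MEC1. Among the 833 that could be placed on a gene, 223 (26.8%) were absent from GENCODE 29, beside 92 of 854 (10.8%) of those that lost use and 38.5% of all measured junctions that could be placed.

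The base that faces the altered U1 position differed between gained and lost donors. Donor letters could be read for 259 of the 876 donors that gained use (29.6%), 229 of 885 that lost use and 16045 of 67566 measured (23.7%). This is less than 80% of each set, so as a property of the whole set the check is void, and the counts describe the readable donors alone. Among these, the sixth intron base was G at 150 of 259 gained donors, 57.9% (95% Wilson interval 51.8% to 63.8%). It was G at 15.7% of lost donors (11.6% to 21%) and at 22.7% of measured donors (22.1% to 23.4%). T, which pairs with the unaltered U1 base, stood at 23.2% of gained, 48.5% of lost and 41.7% of measured donors.

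Read the other way, 151 of 4114 measured junctions with a readable G at this base gained use (3.67%). The share was 0.793% for T, 0.83% for A and 0.682% for C. Use was lost by 0.899% of G, 1.47% of T, 1.3% of A and 1.23% of C donors. Where both donors of a pair could be read (92 pairs), the gained donor alone had G in 45, both had G in 8, the lost donor alone in 5 and neither in 34. Gained and lost donors were 1714 bases apart at the median of 771 pairs, with 73 pairs within 100 bases and 623 over 300 bases apart. The gained donor made the intron shorter in 410 of the 771 pairs.

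In MYSM1, SPPL2A, MAP3K3, ICE1, PPIL3 and SON, the gain came with a loss at an annotated junction of the same acceptor, which kept 5.43% (MAP3K3) to 48.1% (SON) of the reads in mutant MEC1. In MYSM1, the gene of a histone H2A deubiquitinase, the junction of chromosome 1 from 59160879 to 59165295 (minus strand, not in GENCODE 29) had 2 of 71 acceptor reads in wild-type and 120 of 147 in mutant MEC1. Its use went from 2.82% (interval 0.776% to 9.7%) to 81.6% (74.6% to 87.1%), while the annotated junction to 59165657 fell from 97.2% to 18.4%. MYSM1 itself stood at 85.0 and 91.5 CPM in mutant and 77.2 and 81.8 CPM in wild-type libraries (log2 fold change 0.09, adjusted p = 0.116 by edgeR, and 0.15 with 0.00649 under library totals alone).

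SPPL2A encodes an intramembrane protease of B cells that cleaves the CD74 remnant. Its donor pair shown above lies on chromosome 15, minus strand, and joins 51017520 to 51018270 (gained) or to 51018518 (lost), 248 bases apart. The gained junction rose from 28 of 162 reads, 17.3% (12.2% to 23.8%), to 221 of 234 reads, 94.4% (90.7% to 96.7%). Both junctions are annotated.

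MAP3K3, a kinase gene of stress and NF-kB signalling, went from 27.1% (18.8% to 37.3%) to 94.6% (89.2% to 97.3%) at the annotated junction of chromosome 17 from 61712161 to 61723394. ICE1, which encodes a subunit of the complex that drives small nuclear RNA transcription, went from 1.57% (0.433% to 5.56%) to 63.9% (55.1% to 71.9%) on chromosome 5 from 5475000 to 5476086. FLVCR1, a membrane transporter gene, went from 29.2% to 90.2% on chromosome 1 from 213043510 to 213046020. In each of these genes the 2 MEC1 intervals did not overlap. The genes were named for the size of their gain, so this is no separate support.

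LPCAT4, an enzyme gene of phospholipid remodelling, moved to the gained donor shown above on chromosome 15 (34652410 to 34653370, minus strand), from 10 of 68 reads (14.7%) to 46 of 62 (74.2%). PPIL3, the gene of a spliceosome-associated cyclophilin, went from 1.61% to 60.3% on chromosome 2 from 201741760 to 201742220. HMBOX1, a homeobox gene, went from 4.67% to 61.9%. RNF34, a ubiquitin ligase gene, had 4 of 30 reads (13.3%) in wild-type and 78 of 91 (85.7%) in mutant MEC1 on chromosome 12 from 121839898 to 121840545. By the share of reads that leave the same donor, the annotated partner junctions of PPIL3 and RNF34 changed by -20.2 and -5.35 points, beside -59.6 and -72.4 by acceptor. SON, whose protein holds splicing factors in nuclear speckles, had 0 of 170 reads in wild-type MEC1, which allows a use of up to 2.21% by the Wilson interval, and 139 of 268 (51.9%) in mutant MEC1 at a junction of chromosome 21 from 34934986 to 34939463.

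**Figure D1:**
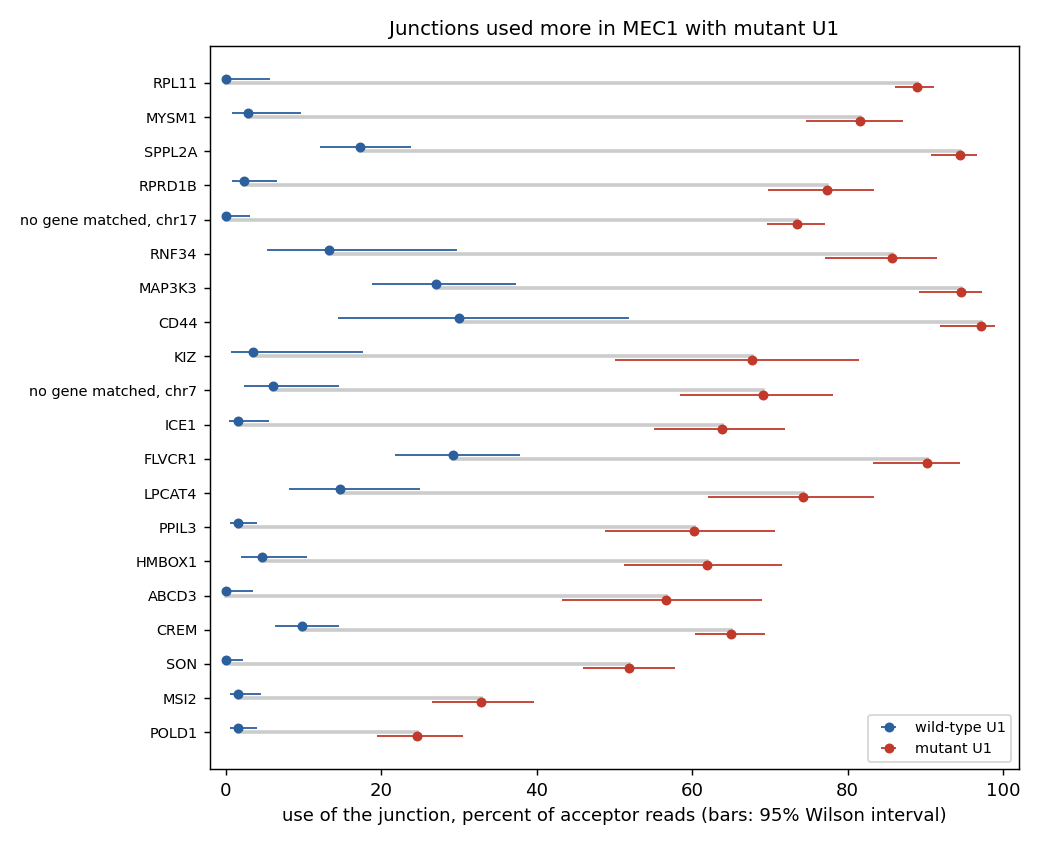
Use of the junctions named for their gain in mutant MEC1, in percent of acceptor reads (x axis), for wild-type (blue) and mutant (red) columns with 95% Wilson intervals. Only named junctions with a gain of at least 20 points are drawn, so each of the 20 lies further right with mutant U1 by choice. They run from POLD1 (1.6% to 24.6%) to RPL11 (0% to 88.9%).

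The genes that the study's text sets apart moved in MEC1 as well. MSI2, an RNA-binding protein gene, went from 3 of 188 reads (1.6%) to 63 of 192 (32.8%, 26.6% to 39.7%) at an unannotated junction of chromosome 17 from 55448352 to 55478740. POLD1, which encodes the catalytic subunit of DNA polymerase delta, went from 4 of 250 (1.6%) to 57 of 232 (24.6%, 19.5% to 30.5%) on chromosome 19 from 50913281 to 50916683. In CD44, a hyaluronan receptor gene with variable exons, the junction of chromosome 11 that skips from 35211612 to 35236399 fell from 210 of 246 reads (85.4%) to 60 of 220 (27.3%). The internal junction from 35231601 to 35232793 went from 6 of 20 reads (30%, 14.5% to 51.9%) to 102 of 105 (97.1%). Its partner from 35211612 to 35232793 changed by -67.1 points by acceptor and by -4.22 as a share of its donor's reads.

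The remaining large losses were mostly the partners of these gains. CREM, a cAMP-responsive transcription factor gene, lost 56.8 points at one junction (81.5% to 24.6%) and gained 55.3 points at another of the same acceptor (9.76% to 65.0%). As a share of the reads that leave its own donor, the CREM junction changed by -2.75 points. ABCD3, a peroxisomal transporter gene, went from 107 of 107 reads to 23 of 53 (43.4%), and TNRC6B, a gene of microRNA silencing, from 95.5% to 39.0%. RABGEF1 and PTCD2 moved little in MEC1 where they could be measured: the largest change was 1.83 points in RABGEF1, and 6.36 points in PTCD2 (5 of 53 against 2 of 65 reads).

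Some of the junctions with the largest change had a read pattern across the series that the others lacked. A junction was set apart when it had at least 100 reads in 1 column and 0 in another. There were 587 such junctions, and 16 of the 880 gains and 17 of the 899 losses lay at their acceptors. In RPL11, a ribosomal protein gene, a junction of chromosome 1 from 24020403 to 24021170 had 542 of 610 reads in mutant MEC1 and 0 reads in each of the 5 other columns. A junction of chromosome 17 from 18967367 to 19015773, with no gene matched, was at 73.5% in mutant and 0% in wild-type MEC1, and at 0% in mutant and 57.0% in wild-type JVM3. RPRD1B on chromosome 20 (2.33% to 77.3%) had such an acceptor too, as had the SON and CREM junctions above, and at RPRD1B JVM3 and HG3 also gained, by 29.6 and 58.0 points.

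Many junctions that changed in another line changed the same way in MEC1. Junctions chosen in JVM3 alone (507 of 75022, 0.676%, gained at least 20 points there) serve as a reading that MEC1 did not choose. Of these, 403 were measured in MEC1, with a median gain of 19.0 points, and 190 (47.1%) passed 20 points. Junctions chosen in HG3 (772 of 74632, 1.03%) gained a median of 18.4 points in MEC1, where 290 of 640 (45.3%) passed. The share of all measured MEC1 junctions that passed was 1.16%. Losses ran alike, with medians of -18.0 points in MEC1 for the 490 junctions that lost use in JVM3 (0.653%) and -17.9 for the 771 that did in HG3 (1.03%).

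For junctions chosen in one of the other lines, the median gain in MEC1 was below that of HG3 and above that of JVM3, which was not tested. Over the 365 JVM3-chosen junctions measured in all lines, the median gain was 19.9 points in MEC1 and 21.2 in HG3, and it was larger in MEC1 at 156. Over the 589 HG3-chosen junctions it was 18.9 points in MEC1 and 13.5 in JVM3, and larger in MEC1 at 403. Of 665 junctions that gained use in MEC1 and were measured in all lines, 181 passed 20 points in JVM3 and 279 in HG3, 152 passed in every line and 502 had a positive change in every line.

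**Figure D2:**
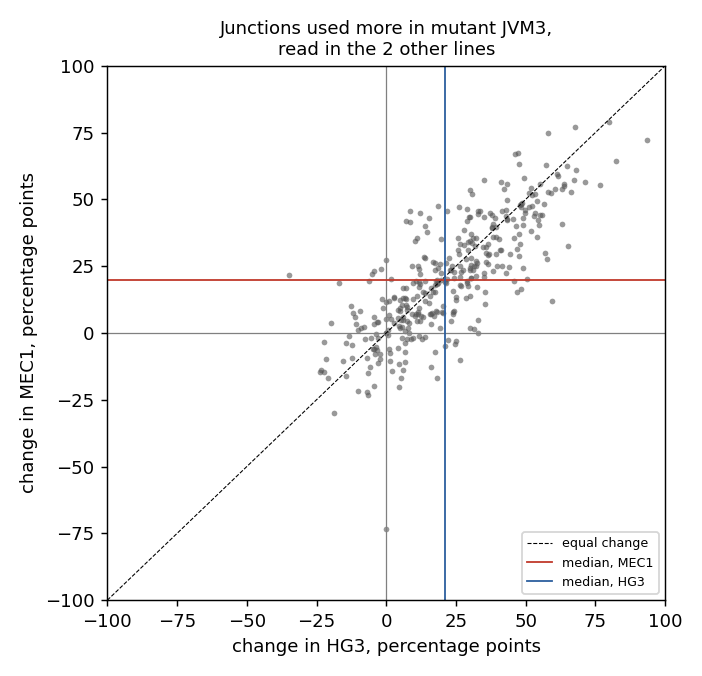
Change in use in MEC1 (y axis) against HG3 (x axis), in percentage points, for the 365 junctions that gained at least 20 points in JVM3 and were measured in all 3 lines. Coloured lines are the medians, 19.9 points in MEC1 and 21.2 in HG3, and the dashed line marks equal change.

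Of 1338 junctions that changed by 20 points in MEC1 (background 2.35% of those measured) and could be measured in all 6 columns, 122 (9.12%, at 74 acceptors) changed by less than 5 points in both other lines. TNFRSF14, the gene of the HVEM receptor, lost use of an annotated junction of chromosome 1 (2487691 to 2488024), from 19 of 27 reads (70.4%, 51.5% to 84.1%) to 6 of 23 (26.1%, 12.5% to 46.5%), with 62.2% to 69.4% in the other 4 columns. In EHBP1, a gene of endocytic traffic, use went from 10 of 47 reads (21.3%, 12% to 34.9%) to 32 of 58 (55.2%, 42.5% to 67.3%) on chromosome 2 from 63206470 to 63217851. Mutant and wild-type use was 47.3% and 48.3% in JVM3, and 43.1% and 42.1% in HG3. MOB3A, a gene of the MOB family, shifted between 2 annotated donors, from 5 of 23 reads (21.7%) to 16 of 27 (59.3%). The 122 rested on fewer reads than the 1338, with a median of 53 against 69 reads at the shallower column, and no difference between lines was tested for any of them.

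Many junctions were read in 1 MEC1 column alone. With at least 10 reads in one and 0 in the other, 691 were read in mutant and 229 in wild-type MEC1. Of the 691, 499 had reads in wild-type JVM3 or HG3. A stricter set of 96 was read in all 3 mutant columns and in no wild-type column, beside 8 for the mirror case, and 81 of the 96 were not annotated. ELF1, an ETS factor gene, had 228 of 746 acceptor reads (30.6%) in mutant and 0 of 630 in wild-type MEC1 at a junction of chromosome 13 from 41533152 to 41543583. In RPL11, a junction of chromosome 1 from 24021231 to 24022288 had 244 of 24379 reads in mutant and 0 of 25252 in wild-type MEC1, which allows up to 0.0152%, and was at 1.46% and 1.29% in mutant JVM3 and HG3. Both acceptors hold a junction with at least 100 reads in 1 column and 0 in another. PAN3, of the deadenylase complex, had 76 reads, STAG1, a cohesin gene, 59, STARD7, a lipid transfer gene, 48, and VPS29, a retromer gene, 46.

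Gene levels were then compared between the 2 MEC1 groups. Of 21270 genes tested, 7776 (36.6%) passed edgeR's quasi-likelihood test at an adjusted p under 0.05, with 3826 that rose (18.0%) and 3950 that fell (18.6%). Scaling by library totals alone gave 4819 and 3115. Most changes were small: the median absolute log2 fold change of called genes was 0.36, and 614 rose and 333 fell by at least 2-fold, of which 509 and 145 were under 1 CPM in wild-type MEC1. The replicates are called technical in the series' text, so p-values measure the spread between libraries and not between cultures. Each SE is that of a difference of log2(CPM + 0.5) between group means, n = 2 a group, and not the SE of edgeR's estimate.

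Genes that hold a gained, unannotated junction fell more often than they rose. Of 188 tested genes with such a junction, 87 fell (46.3%) and 40 rose (21.3%), with a median log2 fold change of -0.14. Among the 567 with an annotated junction that gained use, 146 fell (25.7%) and 175 rose (30.9%), median 0.02. Among the 8009 with any measured junction, 2392 fell (29.9%) and 2213 rose (27.6%), median -0.01. Use is a share of the reads of the same gene, so a junction and its gene's level are not independent measures.

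Of the 188, 8 fell by at least 2-fold and 0 rose by as much. Of the 8009 genes with any measured junction, 30 fell and 16 rose by at least 2-fold. TARS1, the threonyl-tRNA synthetase of the cytoplasm, stood at 154 and 161 CPM in mutant and 427 and 448 CPM in wild-type MEC1. The groups lay far apart, and the edgeR estimate was -1.54 on the log2 scale (SE 0.05, adjusted p = 9.53e-32). Its unannotated junction of chromosome 5 from 33466312 to 33466976 went from 3 of 1850 reads (0.162%) to 140 of 592 (23.6%). EIF2AK1, the heme-regulated kinase of translation initiation, stood at 80.6 and 81.0 CPM against 206 and 197 (log2 fold change -1.38, SE 0.03), with 0.769% and 29.5% use on chromosome 7 from 6085782 to 6085917. The other 6, named for this fall after their values were seen, were C5 (-1.23), DENND2D (-1.16), AIM2 (-1.13), LIG1 (-1.07), DIS3L (-1.06) and EDEM2 (-1.05). They take in a DNA ligase (LIG1) and an exosome ribonuclease (DIS3L). Their gained junctions had fewer reads than that of TARS1. In mutant MEC1 these were 84 of 231 in DENND2D, 32 of 96 in EDEM2, 28 of 89 in LIG1, 12 of 49 in DIS3L and 11 of 40 in AIM2. The C5 junction went from 7 of 43 reads to 11 of 27, and changed by -40.0 points in JVM3 and -26.2 in HG3.

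WDR43, a gene of ribosome biogenesis that is also among the 188, was at 123 and 127 CPM in mutant against 224 and 238 CPM in wild-type MEC1. Its log2 fold change was -0.95 (SE 0.05), and its unannotated junction on chromosome 2 from 29149689 to 29150435 went from 0 of 865 reads to 126 of 428 (29.4%). In the opposite direction stood BRD1, a chromatin reader gene, at 101 and 101 CPM against 55.6 and 54.7 (log2 fold change 0.81), where a new junction reached 23.6%. Of the genes of the study's text, POLD1 fell (78.4 and 73.6 against 101 and 95.1 CPM, log2 fold change -0.42) and MSI2 fell (64.1 and 72.8 against 77.1 and 78.4, -0.25), while CD44 rose (73.6 and 82.4 against 65.0 and 63.8, 0.21).

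**Figure D3:**
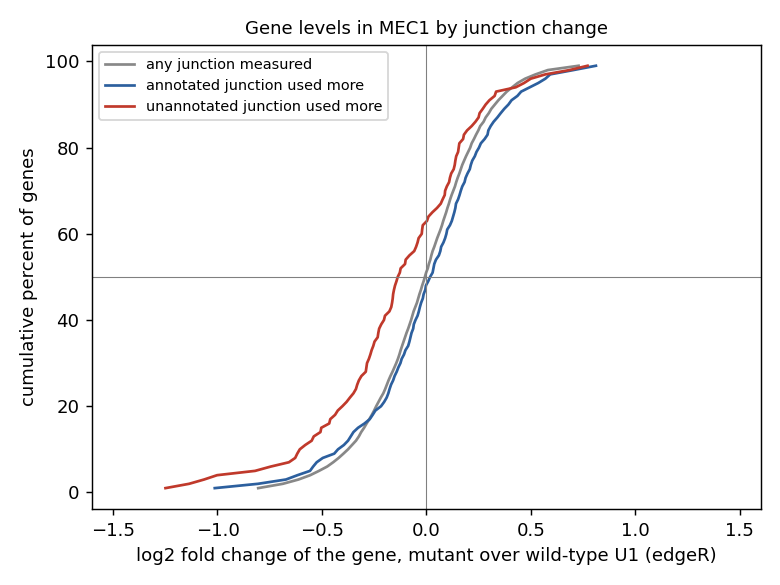
Cumulative percent of genes (y axis) by log2 fold change in MEC1 (x axis), drawn from the percentiles 1 to 99 of each set. The red curve, 188 genes with a gained unannotated junction, lies left of the grey curve of 8009 genes with any measured junction (medians -0.14 and -0.01), and the blue curve of 567 genes with a gained annotated junction has a median of 0.02.

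The genes with the largest rise were nearly silent in wild-type MEC1. TMEM151B, which encodes a membrane protein of neural tissue, stood at 4.87 and 4.43 CPM in mutant and 0.0575 and 0 CPM in wild-type libraries. That is 320 counts against 2, a ratio of 151 with an exact interval of 41.5 to 1250. MEFV, the gene of the inflammasome protein pyrin, had 162 counts against 2 (ratio 76.5, 20.8 to 637), and F13B, the B subunit of clotting factor XIII, had 140 against 2 (ratio 66.1, 18.0 to 551). MTX1P1, a pseudogene, had 116 counts against 1 (ratio 110, 19.3 to 4360). Ratios are scaled to library totals.

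ZNF418, a zinc finger gene, rose from 0.374 and 0.402 CPM to 5.63 and 5.12 CPM (log2 fold change 3.73, SE 0.07). C6orf52 rose from 1.84 and 1.14 CPM to 14.7 and 13.8 CPM, the highest mutant level among the 15 genes with the largest rise (3.18, SE 0.26). The others of the 15 were SUSD2 (4.51), SVIL2P (4.51, with 3.45 to 8.59 over the alternatives), REELD1 (4.85, with 4.03 to 7.99), PAPPA2 (3.53), OR2B8P (3.35, with 2.84 to 4.02), OAZ3 (3.34), TRIM7-AS1 (3.33), PKD2L2 (3.24) and CRB1 (2.94), each with 12 or fewer wild-type counts over both libraries. The ratio of summed levels was 34.0 for REELD1 (exact interval 9.08 to 286, for counting error) and 25.3 for SVIL2P (9.58 to 94.4). TRIM7-AS1 is an antisense gene, and since the sources name no strand option for HTSeq, its reads cannot be told apart from those of its partner. OR2B8P, MTX1P1 and SVIL2P are pseudogenes whose reads can be shared with their parent copies.

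The genes with the largest fall were lowly read too. DHRS9, a retinol dehydrogenase gene, went from 1.18 and 1.37 CPM to 0.184 and 0.164 CPM (82 counts to 12, log2 fold change -2.89). KLK1 (-2.45), a kallikrein protease gene, FLRT1 (-2.44), an adhesion protein gene, CLYBL (-2.15), a mitochondrial lyase gene, and PKP2 (-2.04), a gene of desmosomes, and NALT1 (-2.05), a long non-coding RNA, fell by more than 4-fold. OTOGL went from 15.1 and 15.8 CPM to 4.40 and 5.12 CPM (-1.76, SE 0.10), and RAB3B, a gene of secretory vesicles, from 12 and 12.4 to 3.95 and 3.87 CPM (-1.70, SE 0.03). The others of this group were LNCATV (-1.95), MIX23P1 (-1.94), PRELID2 (-1.83), DNAJC5B (-1.79), TPH1 (-1.78), FAM86B1 (-1.75) and ZNF837 (-1.70). KLK1 rested on unequal replicates, at 0.369 and 0.0984 CPM in mutant MEC1. The call of MIX23P1 was lost by DESeq2 (adjusted p = 0.055) and by edgeR without wild-type replicate 2 (-1.46, adjusted p = 0.0535). MIX23P1 is a pseudogene and FAM86B1 has close copies, so their reads may be split.

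A change that nearly all members shared was seen in genes of the type I interferon response, the antiviral programme that interferon signalling switches on. Of 44 tested members, 42 fell, 1 rose and 1 did not pass, with a median log2 fold change of -0.59 beside 0 over all genes tested. For this and every list below, the shares over all genes tested were 18.0% that rose and 18.6% that fell. Among the 8009 genes with any measured junction they were 27.6% and 29.9%. RSAD2, which encodes the antiviral enzyme viperin, went from a mean of 18.1 to 7.22 CPM (-1.40). ISG15, a ubiquitin-like modifier gene, stood at 153 and 145 CPM in wild-type and 73.2 and 68.6 CPM in mutant MEC1 (log2 fold change -1.13, SE 0.06, adjusted p = 1.62e-25 by edgeR). HERC5, the ligase that attaches it, fell by 1.23 on the log2 scale.

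The abundant members moved with the rare ones. MX1, a dynamin-like antiviral GTPase gene, went from 821 ± 2.93 to 569 ± 6.02 CPM (SD, n = 2), and IFI44L from 713 to 412 CPM. ISG20, an exonuclease gene, stood at 81.2 and 80.6 CPM against 40.1 and 42.4 CPM with mutant U1 (-1.03). TRIM22 (248 and 256 to 142 and 146 CPM) and OAS2 (301 and 309 to 173 and 179 CPM) each fell by 0.86 on the log2 scale. The 1 member that rose was IFITM3, from 3.00 to 8.69 CPM (1.47), while its close copies IFITM1 (-0.61) and IFITM2 (-0.52) fell, and reads can be split among these copies.

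HG3 had a similar median for this list (-0.52, 39 fell, on a background of 19.6% of genes that fell) and JVM3 did not (0.08, 5 fell and 19 rose, on backgrounds of 12% and 10.4%). In a test of the MEC1 response against the mean of the other lines, 4413 genes passed (20.7%), with 2360 higher (11.1%) and 2053 lower (9.65%) in MEC1. Under library totals alone the lower count was 1311. Of the 44 interferon genes, 30 were lower and 2 higher in MEC1. TRIM22 was among the lower, with log2 fold changes of -0.86 in MEC1, 0.06 in JVM3 and -0.09 in HG3. Most members fell in HG3, so TRIM22 does not stand for the list there. The mean of the other lines takes in JVM3, where 19 members rose, and MEC1 was not tested against HG3 alone.

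Targets of NF-kB, the transcription factor family downstream of B cell receptor and CD40 signalling, mostly rose in MEC1. Of 30 tested, 22 rose and 2 fell, with a median log2 fold change of 0.32. CCL22, a chemokine gene, stood at 98.5 and 95.5 CPM in mutant and 42.3 and 38.9 CPM in wild-type libraries (log2 fold change 1.19, SE 0.06, adjusted p = 3.28e-19 by edgeR). CD86, a costimulatory ligand for T cells, rose from 35 and 35.3 to 67.8 and 70.3 CPM (0.91, SE 0.03), and ICAM1, an adhesion molecule gene, from 140 and 134 to 232 and 228 CPM (0.69, SE 0.03). CD83, an activation marker, rose from 79.0 and 79.3 to 129 and 128 CPM (0.63). The subunit genes NFKB2 (0.47) and REL (0.52) rose as well. BIRC3, an inhibitor of apoptosis gene, fell by 0.35 on the log2 scale, and CFLAR by 0.13. The medians were 0.13 in JVM3 and 0.19 in HG3, and 16 members were higher and 3 lower in MEC1 in the test of the difference.

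**Figure D4:**
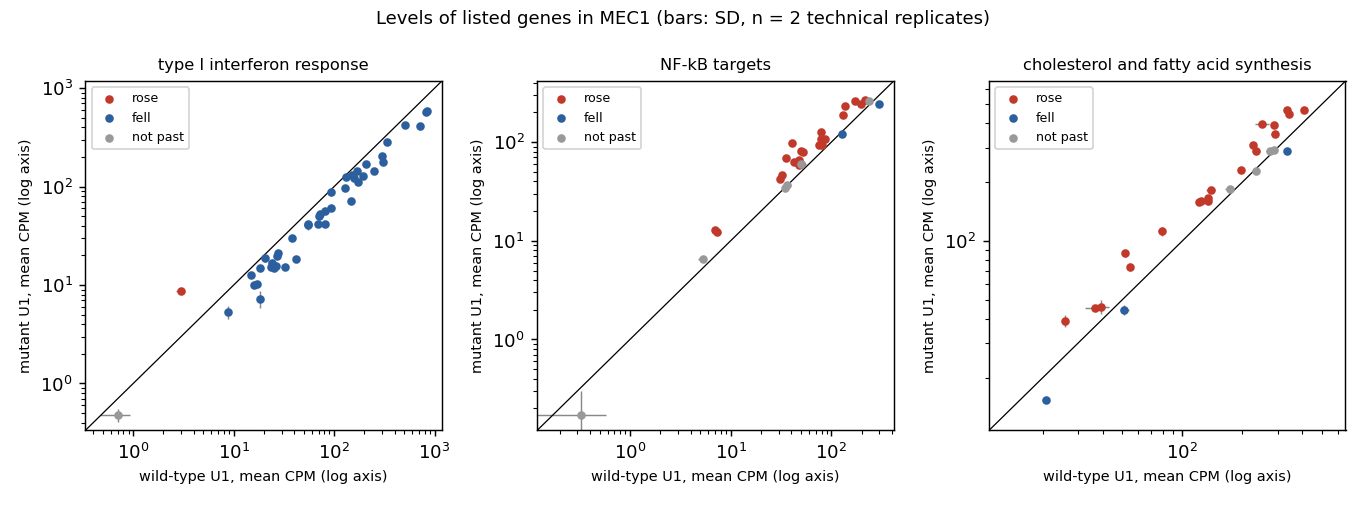
Mean CPM in mutant (y axis) against wild-type MEC1 (x axis), both on log axes, for the tested members of 3 lists, with SD bars over 2 technical replicates and a line at equal levels. Interferon genes lie below the line (42 of 44 fell), and most NF-kB targets (22 of 30) and genes of cholesterol and fatty acid synthesis (20 of 27) lie above it.

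Genes of antigen presentation mostly rose. Of 18 genes of MHC class II presentation, 12 rose and 2 fell (median 0.19). HLA-DMA and HLA-DMB, which load peptides onto class II molecules, rose from 58.1 and 54.9 to 114 and 110 CPM (log2 fold change 0.93) and from 50.4 and 56.2 to 84.6 and 82.5 CPM (0.59). HLA-DOB, their modulator, fell by 0.59 on the log2 scale, and HLA-DOA by 0.33. HLA genes vary between people and share sequence, so reads of HLA-DRB1 (0.44) and HLA-DRB5 (0.44) may be split.

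Of 24 homing receptor and adhesion genes, 10 rose and 5 fell (median 0.11), beside 27.6% and 29.9% of genes with any measured junction. CCR7, the receptor that guides B cells into lymph nodes, rose from a mean of 56.1 to 125 CPM (1.09), CXCR4 from 14.9 to 26.3 CPM (0.76) and CXCR5, the receptor for follicles, from 2.57 to 4.56 CPM (0.78). ITGA4, an integrin subunit, fell from 295 and 307 to 177 and 193 CPM (-0.76).

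Genes of cholesterol and fatty acid synthesis rose by small amounts. Of 27 tested, 20 rose and 3 fell, with a median of 0.24 beside 0.00 in JVM3 and -0.03 in HG3, and 18 were higher and 1 lower in MEC1 than in the other lines. MVK, the mevalonate kinase, rose from 52 and 51.5 to 89.2 and 84.4 CPM (log2 fold change 0.69, SE 0.04). FASN, the fatty acid synthase, went from 252 to 396 CPM (0.59) and HMGCS1, of the mevalonate pathway, from 222 and 231 to 305 and 312 CPM (0.39). FDPS (-0.28), PMVK (-0.27) and ELOVL6 (-0.49) fell.

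Cell cycle genes separated MEC1 from both other lines. In MEC1, 21 of 39 rose and 6 fell (median 0.11), whereas 38 fell in JVM3 (median -0.42) and 39 in HG3 (median -0.99). In the test of the difference all 39 were higher in MEC1. MKI67, a marker of dividing cells, rose from 561 to 799 CPM in MEC1 (0.45), with log2 fold changes of -0.58 in JVM3 and -0.94 in HG3. KIF20A, a mitotic kinesin gene, rose from 64.2 and 67.9 to 102 and 103 CPM (0.57), and CDC45, a replication helicase factor, from 60.7 and 62.7 to 90.5 and 89.8 CPM (0.49). TOP2A (-0.15), MCM3 (-0.25) and KIF11 (-0.30) were among those that fell in MEC1.

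Replication-dependent histone genes fell in MEC1, where most called cell cycle genes rose. Of 12 tested, 11 fell and 0 rose, with a median of -0.34 (-0.29 in JVM3 and -0.95 in HG3). In the test of the difference, however, 9 were higher and 1 lower in MEC1, the same lean as in the cell cycle list. H2BC11 went from 278 and 270 to 210 and 200 CPM (-0.48), and H1-4 from 722 and 739 to 611 and 600 CPM (-0.33). These genes have close copies, and their RNAs end without a poly(A) tail, which ribosomal RNA depletion does not select against.

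**Figure D5:**
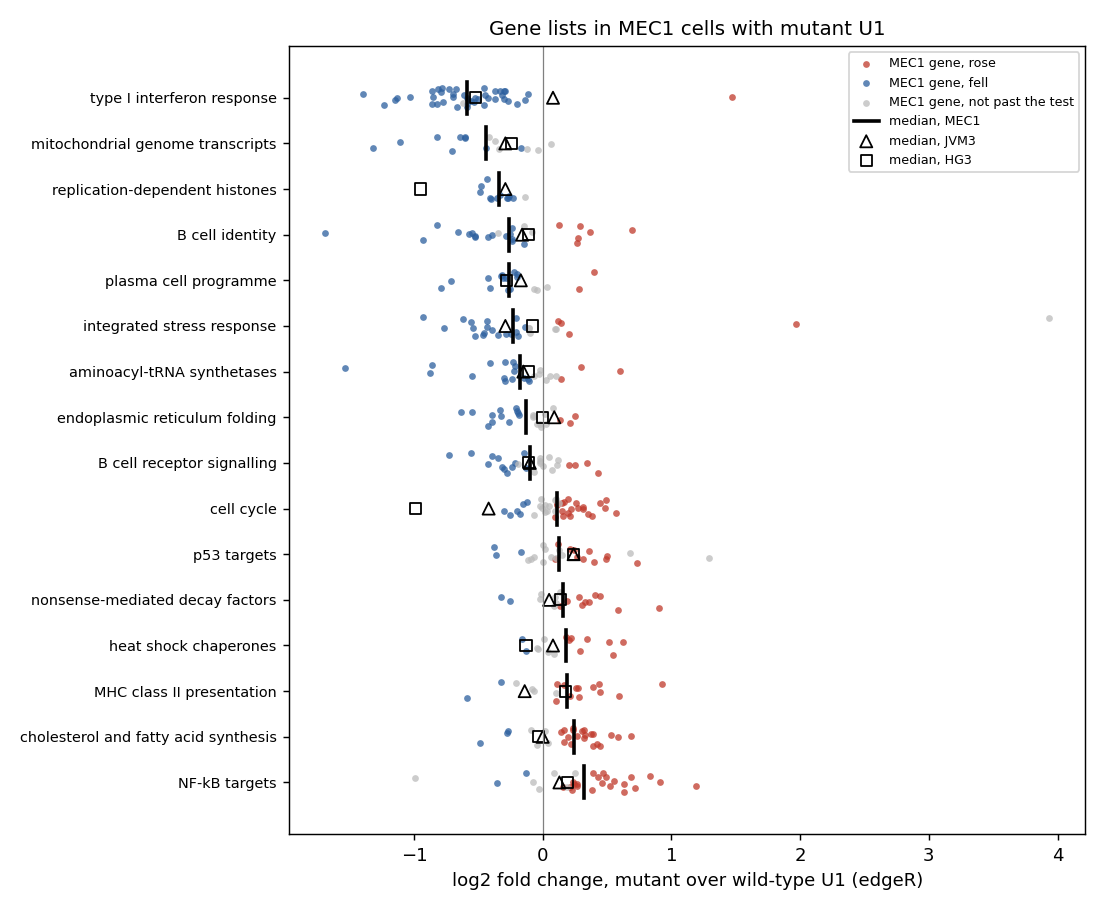
Log2 fold change in MEC1 (x axis) of each tested member of 16 gene lists (rows), coloured by edgeR's call, with the MEC1 median as a bar and the JVM3 and HG3 medians as a triangle and a square. The interferon bar stands at -0.59, the NF-kB bar at 0.32, and the cell cycle bar at 0.11 with both other lines to its left.

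Genes of B cell and plasma cell identity mostly fell. Of 25 B cell identity genes, 16 fell and 6 rose (median -0.26). CD37, a tetraspanin gene of mature B cells, went from 102 and 93.4 to 60 and 55.6 CPM (-0.82), CD22 from 501 and 494 to 357 and 351 CPM (-0.55), CR2 from 569 and 582 to 408 and 425 CPM (-0.53) and CD79B, a chain of the B cell receptor, from 126 and 122 to 89.5 and 84.5 CPM (-0.57). PAX5, the factor that maintains B cell fate, rose from 234 and 221 to 303 and 308 CPM (0.36). CD79A, the B cell marker that encodes the other chain beside CD79B, rose as well, from 168 and 163 to 197 and 179 CPM.

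Of 18 plasma cell genes 13 fell and 2 rose (median -0.26). JCHAIN, the joining chain of secreted immunoglobulin, went from 447 and 475 to 273 and 282 CPM (-0.79), MZB1, an antibody folding factor, from 178 and 173 to 114 and 110 CPM (-0.71) and IRF4 from 1180 and 1190 to 926 and 929 CPM (-0.41). Of 26 B cell receptor signalling genes, 12 fell and 4 rose (median -0.10), with RASGRP3 (-0.73) and SYK, the proximal kinase (-0.56), among those that fell. Of genes with any measured junction, 29.9% fell and 27.6% rose.

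More genes of the integrated stress response, of tRNA charging and of protein folding fell than rose. In the integrated stress response, which ATF4 drives when translation initiation is limited, 18 of 28 fell and 4 rose (median -0.23), among them PCK2 (175 and 164 to 107 and 101 CPM, -0.77), ASNS (506 and 532 to 390 and 400 CPM, -0.45) and ATF4 itself (-0.35). GDF15, a secreted stress factor, rose from 0.68 to 2.80 CPM (1.97). Of 24 aminoacyl-tRNA synthetase genes, 15 fell and 3 rose (median -0.18): TARS1 above, LARS1 (318 and 333 to 182 and 187 CPM, -0.88) and AARS1 (-0.55) fell, and FARSA rose (0.60). Of 24 endoplasmic reticulum folding genes, 12 fell and 3 rose (median -0.13), and 13 were lower and 0 higher in MEC1 than in the other lines. EDEM1, of the degradation of misfolded glycoproteins, went from 486 and 498 to 325 and 337 CPM (-0.63).

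Nonsense-mediated decay factors leaned upward, with 10 of 18 that rose and 2 that fell (median 0.16). Among genes with any measured junction, 27.6% rose and 29.9% fell. SMG9 rose from 26.2 and 26.9 to 52.7 and 50.8 CPM (log2 fold change 0.91, SE 0.03), SMG6, the endonuclease of the pathway, from 19.5 and 20.1 to 31.1 and 30.8 CPM (0.59) and UPF1, its helicase, from 128 and 114 to 175 and 168 CPM (0.44). NBAS (-0.32) and PNRC2 (-0.26) fell. Of 20 genes of U1 snRNP proteins and helpers, 6 rose and 6 fell, with a median of -0.04. The largest of these changes was that of TIA1, which helps U1 at weak donors, from 85.3 and 90.1 to 68.0 and 74.0 CPM (-0.37), and SNRPC, a U1-specific protein gene, rose from 86.0 and 81.1 to 102 and 96.9 CPM (0.19). Of 19 SR protein genes, 3 rose and 5 fell.

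Transcripts of the mitochondrial genome fell in part. Of 15 tested, 9 fell and 0 rose, with a median of -0.44. MT-ND1 went from 180 and 155 to 74.7 and 65.2 CPM (-1.32, SE 0.14) and MT-ND2 from 97.8 and 90.5 to 49.5 and 41.5 CPM (-1.11, SE 0.14), both subunits of respiratory complex I. MT-CO1 went from 3400 to 2010 CPM (-0.82). The 2 ribosomal RNAs of the mitochondrion did not pass, at -0.12 for MT-RNR1 and 0.06 for MT-RNR2. Nuclear copies of mitochondrial sequence can share these reads.

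The remaining lists had counts in both directions, and several lay near the shares of genes with any measured junction (27.6% rose and 29.9% fell). Of 26 p53 targets, 11 rose and 3 fell (median 0.13), with CDKN1A at 0.12 and MDM2 at 0.10. Of 14 BCL2 family genes, 5 rose and 3 fell, with BCL2 from 240 and 250 to 204 and 208 CPM (-0.31) and BCL2L1 from 21.8 and 19.5 to 28.5 and 28.3 CPM (0.39). Heat shock chaperones rose in 8 of 15 and fell in 2 (HSPA1B 0.62). Of 27 glycolysis and hypoxia genes 13 rose and 7 fell, of 27 MYC and ribosome biogenesis genes 8 rose and 7 fell, and of 18 cytokine and chemokine genes 4 rose and 2 fell. Of 30 driver genes of chronic lymphocytic leukaemia, 12 rose and 7 fell, with SF3B1, a splicing factor gene, from 761 and 795 to 557 and 568 CPM (-0.53) and BCOR from 49.9 and 45.3 to 80.4 and 83.2 CPM (0.72).

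Base composition moved with the fold changes. Over 10507 genes of at least 5 CPM on average with a known transcript GC content (98.4% of such genes), Spearman's correlation of GC with the log2 fold change was 0.19 in MEC1, 0.17 in JVM3 and 0.042 in HG3, across genes, which are not independent replicates. The fifth of genes with the lowest GC had a median log2 fold change of -0.06 in MEC1 and the fifth with the highest 0.08. The part of GC content, and of the share of reads outside features, in the list results was not tested.

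Of the single genes that differed most from the other lines, several were nearly silent there. F13B stood at 2.03 and 2.07 CPM in mutant and 0.0575 and 0 CPM in wild-type MEC1, and at 0.0504 to 0.485 CPM in the 8 other libraries (difference 5.11 on the log2 scale, adjusted p = 1.47e-05 by edgeR). ZBED9-AS1 rose from 0.632 and 0.201 to 2.69 and 2.66 CPM in MEC1 (2.57), with -0.16 in JVM3 and -0.19 in HG3 (difference 2.75, adjusted p = 0.000584 by edgeR). MGMT, a DNA repair gene, fell in MEC1 from 18 and 18.5 to 13 and 13.2 CPM (-0.54), while it was at 0 CPM in mutant HG3 and at no more than 0.112 CPM in any JVM3 or HG3 library, so its difference of 3.14 rests on a handful of counts. MED12L, a Mediator subunit gene, was at 6.16 and 5.84 CPM in mutant and 6.38 and 5.69 CPM in wild-type MEC1, and at 0 to 0.185 CPM in the other lines. Fitted differences against a group at 0 depend on the prior count and are no bound. FCRL4, a receptor gene of memory B cells, had 0.88 in MEC1, from 1.09 and 1.07 to 1.87 and 2.30 CPM. That call was lost by DESeq2 (adjusted p = 0.144) and by edgeR without mutant replicate 2 (0.0799), wild-type replicate 1 (0.0536) or wild-type replicate 2 (0.0566). FCRL4 stood at 0.166 and 0.279 CPM in wild-type and 0.0282 and 0 CPM in mutant JVM3, and its change in HG3 did not pass (-0.58).

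Genes that moved at least 2-fold in another line were read in MEC1 as a choice made without it. Over all genes tested, 18.0% rose and 18.6% fell in MEC1. Of 210 that rose in JVM3, 141 rose and 3 fell in MEC1, with a median of 1.35 in MEC1 and 1.63 in JVM3. Of 173 that fell in JVM3, 37 fell and 8 rose in MEC1, with medians of -0.23 and -1.41. The share of these 173 that fell in MEC1 was near that of all genes tested. Of 935 that rose in HG3, 377 rose and 22 fell in MEC1 (medians 0.75 and 1.69 in MEC1 and HG3). Of 480 that fell in HG3, 204 fell and 31 rose in MEC1 (medians -0.30 and -1.29).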

How the data were processed

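Total RNA extracted with Trizol was ribodepleted and sequenced stranded, per the labels' protocols. STAR 2.5.4b, HTSeq 0.9.1 and the build hg19 (GRCh37) are named in the submitters' processing notes. The authors deposited whole-number gene counts for 12 libraries and junction read counts for 6 columns, 1 per line and U1 state. No label or note names the gene annotation used or the strand option of HTSeq. HTSeq's summary entries stayed out of totals and tests (reads without a feature 17.72% to 21.56% in MEC1).

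From the counts, edgeR 4.0.16 (R 4.3.3) fitted 12 libraries as 6 groups after filterByExpr and TMM scaling, with robust quasi-likelihood tests and Benjamini-Hochberg adjustment over 21270 genes. On simulated counts with known changes the test recovered 37 of 40 genes at a fold of 0.5, 31 at 0.667, 36 at 1.5 and 40 at 2, with 10 false calls in 20847 genes fitted. The changed genes were drawn from those above 1 CPM in wild-type MEC1, and all genes shared a common dispersion. Recovery under 1 CPM and with a spread that varies by gene was not simulated. Of 57820 gene IDs, 39538 had a symbol. Junction use, its Wilson interval and the size rule (20 reads, 20 points) were computed from the junction counts, and intervals cover counting error only. Junctions were assigned to genes by matching intron lengths to GENCODE 29, which placed 39263 of 43547 clusters (90.2%), against 5 on a wrong chromosome. Replicate numbers were not taken as pairs in the main fit of all lines. The correlation of same-numbered deviations was 0.408 in MEC1, 0.114 in JVM3 and 0.085 in HG3. The low values of the other lines do not speak for MEC1, where a fit with the replicate block called 8603 genes beside 7776 without it.

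The 15 genes with the largest rise and fall, the 8 with the largest difference each way, up to 4 members per list by p, and the 12 largest junction gains and losses were named by rule, and a few of these genes are not reported here. Other members given as examples were chosen after their values were seen. The members and lists were chosen with earlier results of these data known. Alternatives covered scaling (RLE, library totals), the count filter, DESeq2 1.42.0, a minimum fold of 1.2, single replicates, the replicate block, and junction thresholds.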

Additional observations from a re-analysis of the deposited data

Results flagged for a closer look

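The MEC1 response was tested against the mean response of JVM3 and HG3, and 4413 of 21270 genes differed (edgeR, adjusted p under 0.05). The differences of named genes are given on the log2 scale, MEC1 minus the mean of the other lines. Above the other lines stood F13B (5.11), BAIAP3 (4.49), SLC24A4 (4.32), MGMT (3.14), MBL1P (3.09), FCRL4 (3.05), ZBED9-AS1 (2.75), HSBP1L1 (2.73), TMEM151B (2.22) and ZNF418 (1.30). Below them stood MED12L (-3.67), OR2B8P (-3.48), GFOD1-AS1 (-2.70), RUNDC3A-AS1 (-2.55), TBL1X (-2.54), KIF7 (-2.46) and PC (-2.40). Among the genes that fell most in MEC1, FLRT1 (-2.16), PKP2 (-1.97), CLYBL (-1.42), KLK1 (-1.37), LNCATV (-1.31) and NALT1 (-1.16) were lower than in the other lines. For MGMT, HSBP1L1, MBL1P, SLC24A4 and BAIAP3 both mutant HG3 libraries were at 0 CPM, for MED12L and TBL1X both wild-type HG3 libraries, and for OR2B8P both wild-type JVM3 libraries, so these fitted differences depend on the prior count. The rises of BAIAP3 (1.41) and SLC24A4 (1.37) in MEC1 itself lost their call by DESeq2 (adjusted p = 0.135 and 0.120). By edgeR they lost it without mutant replicate 1 (BAIAP3, 1.06) or wild-type replicate 1 (BAIAP3, 1.25), and without wild-type replicate 2 (SLC24A4, 0.93). The antisense genes cannot be told apart from their partners.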

How the results depend on the processing

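Leaving out 1 MEC1 library gave 6340 to 6955 changed genes (3230 to 3491 higher, 3110 to 3464 lower) and 3702 to 4086 that differed from the other lines. A minimum fold of 1.2 left 2830 genes, 1357 higher and 1473 lower, and in the lists 8 cholesterol, 5 MHC class II and 6 cell cycle genes that rose, and 4 plasma cell and 10 B cell identity genes that fell. DESeq2 called 5526. Library totals alone gave 1311 genes lower than in the other lines. With the replicate block, 8603 genes were called (4251 higher, 4352 lower) and 5226 differed from the other lines, with 1 named gene, KIZ, newly past the threshold. Junctions used more and less numbered 436 and 442 at 50 acceptor reads, 232 and 239 at 100, 3165 and 3171 at 10 points, and 303 and 310 at 30 points. G at the sixth base took 65.9% of gained donors at 100 reads, 44.1% at 10 points and 65.9% at 30 points. Junctions read in mutant and wild-type MEC1 alone numbered 2306 and 958 at 5 reads, and 232 and 100 at 20. As a share of donor reads, the chromosome 17 junction from 18967367 to 19015735 changed by 2.82 points and that of RABGEF1 by -5.07, opposite in sign to their acceptor shares, while RPL11 changed by 3.0, CREM by -2.75, CD44 (35211612 to 35232793) by -4.22, RNF34 by -5.35, PPIL3 by -20.2 and SON by -33.1, far from their acceptor shares. Leaving out acceptors with at least 100 reads in 1 column and 0 in another, chosen after seeing the data, left 864 and 882. The difference from the other lines missed the threshold under 4 alternatives for HSBP1L1 (2.40 to 2.74, beside 2.73), 3 for MBL1P (2.96 to 3.10, beside 3.09) and 1 for OR2B8P (-2.81 without wild-type replicate 2, beside -3.48). The causes were not tested. Depth limits junctions near 20 reads and genes under 1 CPM.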

Other observations

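Small nucleolar RNAs, which guide chemical modification of other RNAs, mostly rose where they passed the test. Of 184 tested in MEC1, 26 rose (14.1%) and 3 fell (1.63%), beside 18.0% and 18.6% of all genes. The SNORD116 copies, from an imprinted cluster, made up 11 of these 26, with 13 tested, 0 that fell and a median log2 fold change of 1.08. Their near-identical sequences share reads. Of the other 171 small nucleolar RNAs tested, 15 rose and 3 fell, with a median of 0.13. The share that rose was thus below that of all genes, and the SNORD116 cluster held a large part of it. SNORD46 stood at 22.5 and 23.4 CPM in mutant and 6.58 and 6.73 CPM in wild-type MEC1 (log2 fold change 1.72, adjusted p = 4.18e-18 by edgeR), with -0.09 in JVM3 and 0.44 in HG3. The 3 that fell were SCARNA10 (-0.30), SCARNA12 (-0.14) and U3 (-0.47).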
